A study of Bos taurus with 8 samples.

Results

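The EGF-like ligands *AREG*, *EREG*, *BTC*, *HBEGF* and *TGFA*, the ERBB receptors *EGFR*, *ERBB2*, *ERBB3* and *ERBB4*, and the receptor inhibitor *ERRFI1* were followed in cultured bovine granulosa cells (GC) at a low or a normal oxygen level. These 10 genes were taken by their symbols from the array annotation, and each of them had 1 transcript cluster among the 24415 clusters of the array, of which 18550 carry exactly 1 gene name. The low oxygen level group (LOL 1 to 4) had been held at 1% oxygen and the normal oxygen level group (NOL 1 to 4) at 21% oxygen, from day 6 to day 8 of culture. All GC came from small to medium follicles of abattoir ovaries, had been frozen and thawed, and grew on collagen without serum, with FSH, IGF-1 and androstenedione in the medium of both groups and with no LH named. The cell type in the labels is cultured granulosa cells, and neither the number of animals nor the pooling of their cells is given in the sources used here. Nothing states that the 4 samples of a group were separate cultures, so p-values measure the spread between these samples only, which may be technical. The question was which parts of the EGF-like signaling system differed in transcript level between LOL and NOL.

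EGF-like ligands are made as membrane-bound precursors, cut loose by metalloproteases of the ADAM family, and bind ERBB receptor tyrosine kinases, which then pair and signal through RAS and the kinases MEK and ERK. In the ovulatory follicle of mice, the LH surge induces *Areg*, *Ereg* and *Btc* in mural granulosa cells, and the shed ligands act on EGFR of granulosa and cumulus cells to drive cumulus matrix formation, prostaglandin synthesis and the resumption of oocyte meiosis. ERRFI1, also known as MIG6, is a cytoplasmic protein that is itself induced by EGFR signaling and binds the kinase domain of the receptor to block it.

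Signals are log2 values made by the authors with the robust multichip average method, 1 array for each sample, and a difference is LOL minus NOL. The array medians were 4.12 to 4.18 at LOL and 4.06 to 4.08 at NOL, and arrays of the same group correlated at r = 0.993 to 0.996 over all clusters. Markers of granulosa cells were present in both groups, with 7 of 11 lower and 2 higher at LOL. Their summed linear signal was 5272 to 5813 at LOL and 8449 to 8728 at NOL. All 6 measured markers of smooth muscle and fibroblasts were higher at LOL, with sums of 744 to 786 at LOL and 214 to 258 at NOL. Of 7 endothelial markers 2 were higher at LOL (sums of 114 to 122 at LOL and 61 to 71 at NOL), and of 7 leukocyte markers 2 (88 to 104 at LOL and 79 to 86 at NOL). The endothelial markers that rose were *CLDN5*, which averaged 6.04 at LOL and 4.10 at NOL (3.82-fold, adjusted p = 4.8e-06), and the dim *TEK* (difference 0.42, adjusted p = 0.0131). The leukocyte markers that rose were *CD68* (difference 0.31, adjusted p = 0.0330) and the dim *CSF1R* (difference 0.35, adjusted p = 0.0156). The endothelial marker *PECAM1* averaged 2.57 at LOL and 2.43 at NOL, and the leukocyte marker *PTPRC* 1.87 at LOL and 1.91 at NOL, near or below the lower quartile of all clusters (2.42 to 2.52 at LOL and 2.36 to 2.38 at NOL). Of 4 theca markers 1 was higher and 1 lower (382 to 400 at LOL and 188 to 242 at NOL), and of 5 oocyte markers 1 was higher (30 to 33 at LOL and 29 to 30 at NOL). The theca marker that rose was *INSL3*, which averaged 8.48 at LOL and 7.44 at NOL (2.05-fold, adjusted p = 1.2e-05). The theca marker that fell was *LHCGR* (difference -0.82, adjusted p = 0.00143). The part of these marker shifts in the results below was not tested. In RNA of whole cultures, fewer cells of a type and less RNA per cell cannot be told apart.

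At LOL, *ERRFI1* was 7.73-fold higher and *EREG* at least 3.33-fold lower than at NOL, and both passed an adjusted p of 0.05 together with a fold of 2. *TGFA* and *ERBB2* were lower and *HBEGF* higher by less than 2-fold, and passed the adjusted p. *ERBB3* was higher and passed it too, at signals under 4 in both groups, where a fold is not given. *AREG*, *BTC*, *EGFR* and *ERBB4* did not pass it. Thus 6 of the 10 genes passed the adjusted p, 3 in each direction, where 41.0% of all clusters did, 20.5% higher and 20.5% lower at LOL. With clusters under 4 in both groups left out, 3 of 7 genes passed in each direction, and of 13142 clusters 4124 were higher and 4962 lower. With each array centred on its median, the clusters past the adjusted p split into 3585 higher and 5693 lower, whereas the members again had 3 in each direction. Past both thresholds were 2 of the 10, 1 higher and 1 lower, beside 4.87% of all clusters, 2.22% higher and 2.65% lower. The median difference was 0.14 over the 10 genes and 0.06 over all clusters. The groups did not overlap in 7 of the 10, beside 39.4% of all clusters.

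**Figure D1:**
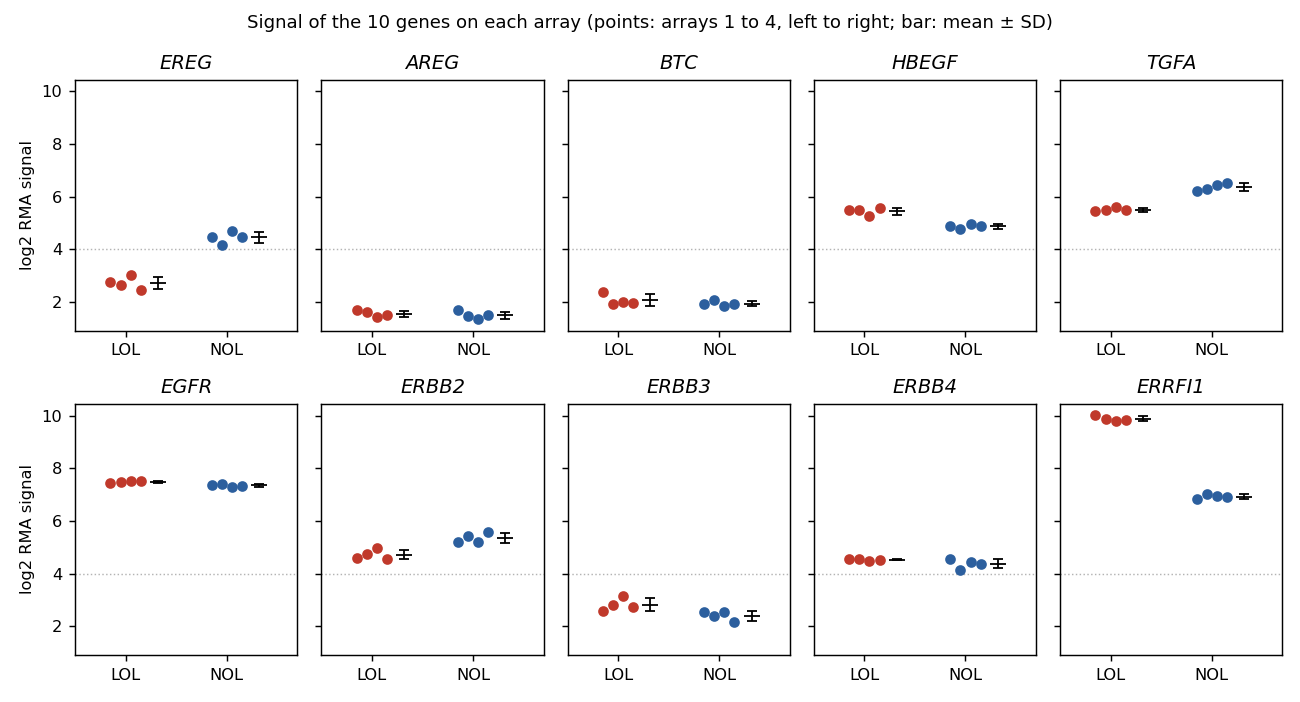
Log2 signal of the 10 genes (y axis) on the 4 LOL arrays (red, left) and the 4 NOL arrays (blue, right), with mean ± SD beside each group; the dotted line marks a log2 signal of 4. The LOL arrays lie at 9.80 to 10.01 and the NOL arrays at 6.82 to 7.03 in *ERRFI1*, and at 2.46 to 3.01 and 4.17 to 4.69 in *EREG*.

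Epiregulin, encoded by *EREG*, binds EGFR and ERBB4. Its log2 signal was 2.77, 2.64, 3.01 and 2.46 in LOL 1 to 4, against 4.48, 4.17, 4.69 and 4.48 in NOL 1 to 4. Every LOL array was thus below every NOL array, with a gap of 1.16 between the groups. The means were 2.72 ± 0.23 at LOL and 4.46 ± 0.21 at NOL (SD, n = 4 each), and the difference was -1.74 (standard error 0.13, 95% interval -2.03 to -1.44, adjusted p = 4.5e-06). The measured fold was 3.33 (95% interval 2.70 to 4.10). It is given as "at least" because the LOL mean is under 4, where background may hide part of a fall. That level was chosen for this report. No detection call comes with the values, so background is not known at any level. The NOL arrays, at 4.17 to 4.69, lay only just above 4. *EREG* was the only one of the 5 ligands past both thresholds.

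*EREG* lies in a row of EGF-like ligand genes. In the RefSeq annotation of the cattle assembly ARS-UCD2.0, the protein-coding genes follow each other on chromosome 6 as *MTHFD2L*, *EPGN*, *EREG*, *AREG*, *BTC*, *PARM1*, *RCHY1* and *THAP6*. *AREG*, next to *EREG*, differed by 0.06 (adjusted p = 0.634) and *BTC* by 0.13 (adjusted p = 0.354). On the other side, *MTHFD2L*, a mitochondrial folate enzyme, differed by -0.10 (adjusted p = 0.607). Beyond *BTC*, *PARM1* was 1.55-fold higher at LOL, at 6.27, 6.26, 6.19 and 6.34 in LOL 1 to 4 against 5.50, 5.50, 5.75 and 5.78 in NOL 1 to 4 (difference 0.63, standard error 0.08, adjusted p = 1.6e-04). *RCHY1* and *THAP6* differed by -0.18 and -0.21 and did not pass (adjusted p = 0.0692 and 0.0762). The LOL arrays of *THAP6*, 4.15 to 4.40, nevertheless all lay below its NOL arrays, 4.43 to 4.72. Of the 7 genes measured in this row, only *EREG* passed the adjusted p as lower and only *PARM1* as higher. *AREG* and *BTC* were under 4 in both groups, where a fall may not be seen. *EPGN*, the gene of the ligand epigen, had no cluster that carries its name alone and so was not measured. The neighbours were chosen for their position after the values of *EREG* were known.

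**Figure D2:**
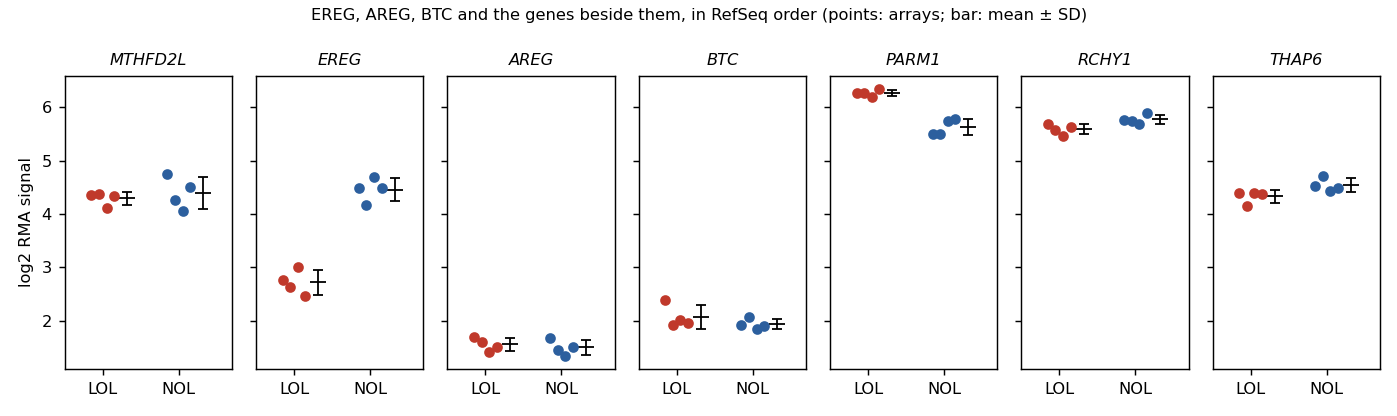
Log2 signal (y axis) of *EREG*, *AREG*, *BTC* and the measured genes beside them in chromosomal order, on LOL arrays (red, left) and NOL arrays (blue, right) with mean ± SD. The LOL and NOL points are 1.16 apart in *EREG* and mixed in *AREG*, *BTC* and *MTHFD2L*, and *PARM1* is higher at LOL.

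Amphiregulin (*AREG*), a ligand of EGFR alone, was dim in both groups. Its signal was 1.69, 1.61, 1.42 and 1.52 in LOL 1 to 4 and 1.68, 1.46, 1.35 and 1.52 in NOL 1 to 4. Betacellulin (*BTC*), a ligand of EGFR and ERBB4, was at 2.39, 1.92, 2.02 and 1.96 in LOL 1 to 4 and at 1.93, 2.08, 1.84 and 1.91 in NOL 1 to 4. The groups overlapped in both genes, and every value lay below the lower quartile of their array. At such signals a difference at or below background cannot be seen, so the intervals of the difference, -0.14 to 0.25 in *AREG* and -0.11 to 0.37 in *BTC*, cover the spread between arrays only. The sign of the *AREG* difference turned under median centring, at -0.007.

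Heparin-binding EGF-like growth factor (*HBEGF*), a ligand of EGFR and ERBB4, was higher at LOL. Its signal was 5.48, 5.48, 5.26 and 5.57 in LOL 1 to 4, against 4.89, 4.76, 4.97 and 4.89 in NOL 1 to 4. The groups did not overlap, and the difference was 0.57 (standard error 0.08, adjusted p = 2.7e-04), a fold of 1.48 (95% interval 1.31 to 1.68). Transforming growth factor alpha (*TGFA*), a ligand of EGFR, went the other way. It was at 5.44, 5.49, 5.62 and 5.49 in LOL 1 to 4, against 6.22, 6.29, 6.45 and 6.51 in NOL 1 to 4. All 4 LOL arrays lay at least 0.60 below the NOL arrays, and the difference was -0.86 (standard error 0.08, adjusted p = 1.5e-05), or 1.81-fold lower (95% interval 1.60 to 2.05). Among the 5 ligands, 2 thus fell, 1 rose and 2 did not pass.

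Of the receptors, *EGFR*, which binds all 5 ligands, had a steady signal. It was 7.45, 7.50, 7.52 and 7.52 in LOL 1 to 4 and 7.38, 7.42, 7.28 and 7.33 in NOL 1 to 4. The lowest LOL array was 0.03 above the highest NOL array, but the difference of 0.14 (standard error 0.06, 95% interval 0.02 to 0.27) did not pass (adjusted p = 0.0695). It passed with a plain analysis of variance, with quantile normalization, with an intensity trend and with dim clusters left out, at an adjusted p of 0.0197 to 0.0280. In every setting the size of the difference stayed between 0.08 and 0.19.

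*ERBB2*, a receptor with no ligand of its own that pairs with the other ERBB proteins, was lower at LOL. Its signal was 4.60, 4.76, 4.97 and 4.57 in LOL 1 to 4, against 5.20, 5.43, 5.20 and 5.59 in NOL 1 to 4. The groups were 0.23 apart at their nearest arrays, and the difference was -0.63 (standard error 0.12, adjusted p = 0.00155), a 1.55-fold fall (95% interval 1.29 to 1.85). *EGFR* and *ERBB2* form a common receptor pair, and the intervals of their differences, 0.02 to 0.27 and -0.89 to -0.37, do not meet, although the contrast between the genes was not tested.

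*ERBB3*, whose kinase is nearly inactive, and *ERBB4* are the neuregulin receptors. *ERBB3* was at 2.59, 2.80, 3.16 and 2.75 in LOL 1 to 4 and at 2.54, 2.39, 2.56 and 2.15 in NOL 1 to 4. Its difference of 0.42 (standard error 0.13, adjusted p = 0.0285) passed the test, yet both groups were below 4 and only 0.03 apart at their nearest arrays. The call was lost without LOL 2, LOL 3, NOL 2 or NOL 4 (adjusted p = 0.0517 to 0.0756), with a plain analysis of variance (adjusted p = 0.0825) and with quantile normalization (adjusted p = 0.0527). *ERBB4* was at 4.55, 4.55, 4.50 and 4.52 in LOL 1 to 4 and at 4.55, 4.16, 4.43 and 4.37 in NOL 1 to 4. NOL 1 equalled the highest LOL arrays, and the difference of 0.15 (95% interval -0.03 to 0.34) did not pass (adjusted p = 0.169).

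*ERRFI1* had the largest difference of the 10 genes. Its signal was 10.01, 9.88, 9.80 and 9.82 in LOL 1 to 4, against 6.82, 7.03, 6.96 and 6.90 in NOL 1 to 4. The groups were 2.77 apart at their nearest arrays, and each spanned 0.21. The means were 9.88 ± 0.09 at LOL and 6.93 ± 0.09 at NOL (SD, n = 4 each), with a difference of 2.95 (standard error 0.07, adjusted p = 6.5e-09) and a fold of 7.73 (95% interval 6.91 to 8.64). On the linear scale this is a signal of 942 ± 63.1 at LOL and 122 ± 7.52 at NOL.

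**Figure D3:**
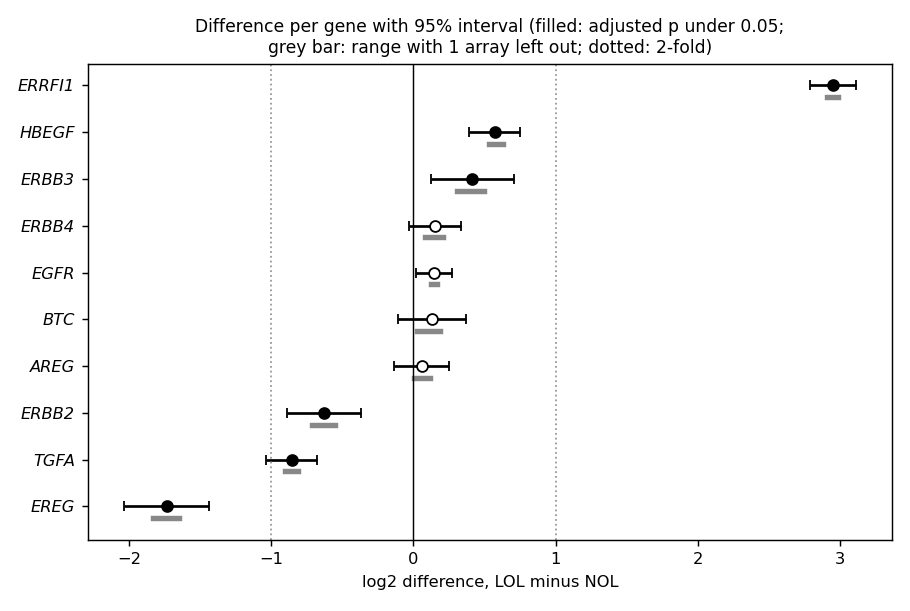
Log2 difference of each gene, LOL minus NOL (x axis), with its 95% interval, ordered by size. Filled points passed the adjusted p, the grey bars span the values with 1 array left out, and the dotted lines mark 2-fold. Only *ERRFI1* at 2.95 and *EREG* at -1.74 have points beyond the dotted lines, and the interval of *TGFA* reaches past the lower one.

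Within a group, the 10 genes spread about as much as other clusters. The median SD over the 10 was 0.12 at LOL and 0.14 at NOL, and over all clusters it was 0.12 at LOL and 0.11 at NOL. The tightest was *ERBB4* at LOL (SD 0.02) and the widest *ERBB3* at LOL (SD 0.24). In 5 of the 7 genes whose groups did not overlap, LOL 3 was the LOL array nearest to NOL, namely *EREG*, *HBEGF*, *TGFA*, *ERBB2* and *ERRFI1*, and in *EGFR* and *ERBB3* it was LOL 1. LOL 3 also had the highest median and lower quartile of all arrays, 4.18 and 2.52, and the lowest upper quartile, 5.97. The part of these in its place was not tested. Without LOL 3 the differences were -1.83 in *EREG*, 0.63 in *HBEGF*, -0.89 in *TGFA*, -0.71 in *ERBB2* and 2.98 in *ERRFI1*, and all 5 passed the adjusted p.

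For the 2 genes past both thresholds, the clusters with the most similar values over the 8 arrays were looked up. Such correlations mainly follow the difference between the groups, which all these clusters share. The values of *ERRFI1* were most like those of *PPP1R3B*, a subunit that directs protein phosphatase 1 to glycogen (r = 0.9997), *JUNB*, a subunit of AP-1 (r = 0.9996), and *HAGH*, a glyoxalase (r = 0.9993), with differences of 2.87, 1.98 and 1.65. The values of *EREG* were most like those of the kinase *TAOK2* (r = 0.9969), the adaptin *AP1G1* (r = 0.9968) and the zinc finger gene *ZNF358* (r = 0.9925), with differences of -0.66, -0.56 and -0.91. When each array was set against its group mean, *TAOK2* was again among the 3 nearest to *EREG* (r = 0.9772), after *TARM1* (r = 0.9906) and *CLDN19* (r = 0.9825). None of the 3 nearest to *ERRFI1* recurred, and they were *OR2D37*, *ICOSLG* and *TMEM222* (r = 0.973, 0.9719 and 0.9626). These r describe 8 arrays and are the highest of 18550 clusters.

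The rest of the pathway was read from 7 lists with 163 genes, of which 152 had a cluster. At the adjusted p, 54 were higher and 49 lower at LOL, beside the 41.0% of all clusters that passed, 20.5% in each direction. With clusters under 4 in both groups left out, 98 pathway genes passed, and of 13142 clusters 4124 were higher and 4962 lower. The share of the 152 that passed is larger than the 41.0% over all clusters. Among the 13142 clusters the share is larger than 41.0% too, and the lists held few dim genes. The 41.0% is thus not a like background for the lists. The other ERBB ligands measured were all below 4 in both groups. The neuregulin *NRG1* had a difference of -0.52 (adjusted p = 0.0378) and *NRG2* of 0.30 (adjusted p = 0.0296), with overlapping groups in both, and neither call held without LOL 3 (adjusted p = 0.0920 and 0.0618). The call of *NRG1* was also lost without LOL 2, LOL 4, NOL 2, NOL 3 or NOL 4, and that of *NRG2* without LOL 1, NOL 1, NOL 2 or NOL 4. A plain analysis of variance lost both (adjusted p = 0.110 and 0.0675), and quantile normalization and median centring lost *NRG2* (adjusted p = 0.0960 and 0.0606). *NRG3* differed by 0.18 and did not pass.

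Of 15 genes of ligand shedding and trafficking, 8 fell, 4 rose and 3 did not pass, beside 20.5% of all clusters each way. The median difference was -0.21 beside 0.06 over all clusters. Quantile normalization gave 6 lower and 5 higher, and with dim clusters left out the median was -0.09 beside -0.02 over all clusters. *ADAM17*, the main sheddase of amphiregulin, epiregulin, TGF alpha and HB-EGF, was at 6.58, 6.57, 6.39 and 6.53 in LOL 1 to 4 and at 7.24, 7.06, 7.06 and 7.04 in NOL 1 to 4. It was 1.50-fold lower (adjusted p = 1.0e-04), with no overlap. *ADAM10*, the main sheddase of betacellulin, was 1.56-fold lower (adjusted p = 1.3e-04) and *ADAM9* 2.86-fold lower (adjusted p = 1.5e-07). The 4 that rose were *RHBDF1*, an inactive rhomboid that carries ADAM17 to the cell surface, by 3.28-fold (adjusted p = 3.5e-07), *TIMP3*, an inhibitor of ADAM17, by 2.54-fold (adjusted p = 7.4e-07), *ADAM8* by 1.99-fold and *ADAM19* by 1.52-fold. *ADAM15*, *ADAM12* and *FRMD8* differed by 0.03, 0.16 and 0.09 and did not pass.

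Inhibitors and turnover genes of ERBB receptors other than *ERRFI1* were split, with 6 higher, 6 lower and 11 not past the test among 23. Of all clusters 20.5% were higher and 20.5% lower. The median difference of the 23 was 0.04, and it was -0.02 under median centring and 0.009 with dim clusters left out. The suppressors of cytokine signaling *SOCS3* and *SOCS4* were 3.44-fold and 2.51-fold lower at LOL (adjusted p = 6.6e-08 and 3.5e-07), of which SOCS4 is known in human cells to lower the level of EGFR. *LRIG3*, a membrane protein related to the EGFR inhibitor LRIG1, was 1.87-fold lower (adjusted p = 8.7e-06). The phosphatase *PTPN2*, which acts on EGFR, was 2.10-fold higher (adjusted p = 1.8e-06). The adaptors *GRB14* and *EPS15* differed by 0.05 and 0.04 and did not pass, and both signs turned under median centring. *ERRFI1* thus had a larger difference than any of the 23.

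Among 36 adaptors and RAS-ERK cascade genes, 11 were higher, 11 lower and 14 not past the test, beside 20.5% of all clusters each way. The median difference of the 36 was 0. This balance moved with the scaling, to 11 higher and 8 lower under quantile normalization (median 0.04) and 8 higher and 12 lower under median centring (median -0.06). *PIK3R1*, the regulatory subunit of phosphoinositide 3-kinase, was 2.39-fold lower (adjusted p = 2.0e-07) and was the one gene of the list past both thresholds. The docking protein *GAB2* and the kinase MEK1, *MAP2K1*, were 1.84-fold and 1.77-fold higher (adjusted p = 1.8e-06 and 1.5e-05). *PIK3CB*, a catalytic subunit of the same kinase as *PIK3R1*, was 1.53-fold lower (adjusted p = 3.1e-04). *NRAS* and the kinase MEK2, *MAP2K2*, differed by -0.08 and -0.12 and did not pass.

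Among 19 genes listed as feedback regulators of ERK, 6 rose, 6 fell and 7 did not pass, beside 20.5% of all clusters each way. *SPRY1*, a sprouty protein that dampens RAS-ERK signaling, was at 7.59, 7.42, 7.28 and 7.27 in LOL 1 to 4 and at 4.31, 4.51, 4.55 and 4.83 in NOL 1 to 4. It was 7.16-fold higher (difference 2.84, standard error 0.11, adjusted p = 9.8e-08), close in size to *ERRFI1*. Its relative *SPRY3* went the other way and was 2.51-fold lower (adjusted p = 8.0e-06). The phosphatase *DUSP10* was at least 2.19-fold higher (adjusted p = 8.2e-05) and the RAS GTPase activator *RASAL2* 1.98-fold higher (adjusted p = 9.1e-06). *NF1* and *SPRED1* differed by 0.11 and 0.08 and did not pass. *DUSP6*, the ERK phosphatase induced by ERK itself, was 1.29-fold lower (adjusted p = 0.0204) and was looked up after the values were known.

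A list of 39 genes held those that growth factors induce early through ERK. It also held transcription factors through which ERK acts, *ELK1*, *ELK3*, *ELK4* and *SRF*. Of the 39, 22 rose, 8 fell and 9 did not pass, beside 20.5% of all clusters in each direction. The median difference was 0.31 beside 0.06 over all clusters. Under median centring 17 rose and 8 fell, beside 3585 higher and 5693 lower of 24415 clusters. With dim clusters left out, 20 of 33 rose and 8 fell, beside 4124 higher and 4962 lower of 13142 clusters. *ATF3*, a stress-induced transcription factor, was 4.98-fold higher, *JUNB* and the RNA-binding protein *ZFP36*, which destabilizes AU-rich transcripts, were 3.95-fold higher each, and its relative *ZFP36L1* was 3.13-fold higher (adjusted p = 4.0e-08 to 2.0e-07). The urokinase receptor *PLAUR* and *ELK4* differed by -0.10 and -0.08 and did not pass, and that of *ELK4* turned positive under quantile normalization. Looked up after the values were known, *EGR1* was 1.38-fold higher (adjusted p = 6.6e-04), whereas *FOS* was 1.42-fold lower (adjusted p = 0.00123) and *ETV5*, a transcription factor that follows ERK activity, at least 2.52-fold lower (adjusted p = 8.7e-07). These genes thus did not move 1 way, and many of them also respond to other signals.

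**Figure D4:**
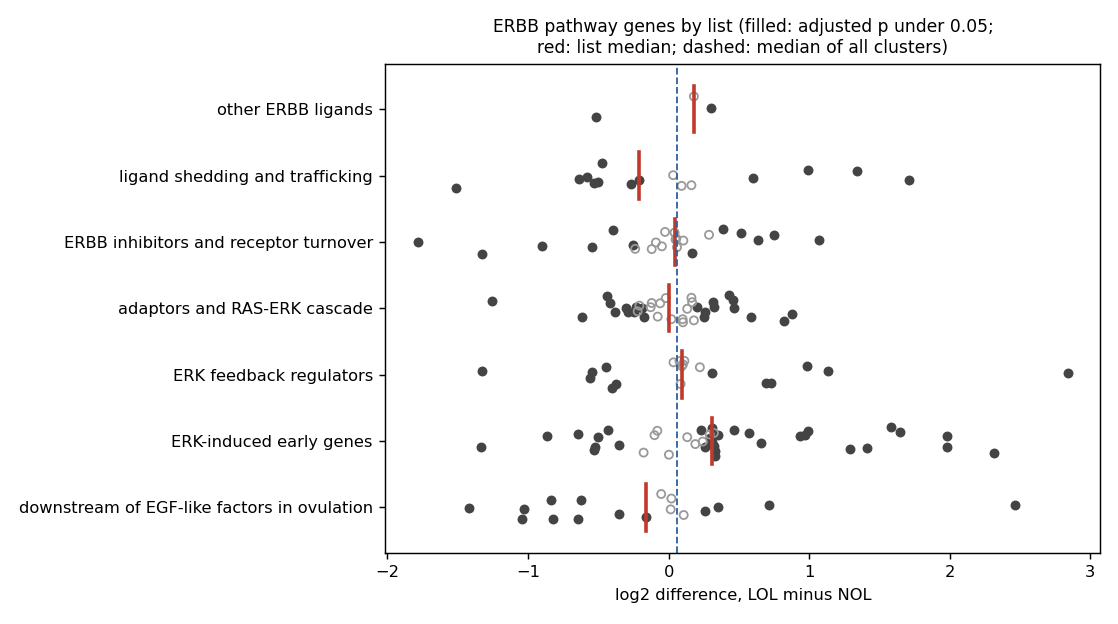
Log2 difference, LOL minus NOL (x axis), of each measured gene in 7 lists around the ERBB pathway (y axis). Filled points passed the adjusted p, red lines are list medians, and the dashed line is the median of all clusters, 0.06. The early genes have their median at 0.31 and the shedding and ovulation lists at -0.21 and -0.16 (-0.09 and -0.49 with dim clusters left out), and every list but the first holds points on both sides beyond 0.5.

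Of 17 genes that act downstream of EGF-like factors in ovulation, or upstream of them, 9 fell, 4 rose and 4 did not pass. Of all clusters 20.5% passed in each direction. The median difference of the 17 was -0.16. With dim clusters left out, the median of the remaining 12 was -0.49 beside -0.02 over all clusters. The cumulus matrix genes *PTX3* and *TNFAIP6* were 2.68-fold and 2.06-fold lower at LOL (adjusted p = 2.5e-06 and 1.4e-06). *HAS2*, also a cumulus matrix gene, was lower by a log2 difference of -1.025 (adjusted p = 0.00349). Its means, 2.515 at LOL and 3.54 at NOL, were below 4 in both groups, so a fold is not given. The NOL arrays of *HAS2* ranged widely, from 3.03 to 4.12. *PTGES*, the terminal synthase of prostaglandin E, was 5.50-fold higher (adjusted p = 6.1e-08), while *PTGS2*, the enzyme before it in the same pathway, was 1.56-fold lower (adjusted p = 0.00137). The LH receptor *LHCGR*, through which the LH surge induces the EGF-like ligands, was at 3.94, 3.88, 3.21 and 3.71 in LOL 1 to 4 and at 4.64, 4.60, 4.39 and 4.40 in NOL 1 to 4. It was lower at LOL by at least 1.77-fold (adjusted p = 0.00143). The progesterone receptor *PGR* was 1.78-fold lower (adjusted p = 5.6e-06). The other genes that rose were *RUNX1*, *RUNX2* and *NRIP1*, by 0.26, 0.36 and 0.72 on the log2 scale, and those that did not pass were *PTGER2*, *PTGER4*, *CEBPA* and *SULT1E1*, all with means below 4 in both groups.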

How the data were processed

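Total RNA of 4 LOL and 4 NOL samples was hybridised, 1 sample an array, to the Affymetrix Bovine Gene 1.0 ST design. The authors made the deposited log2 signals with the robust multichip average method (RMA), a method that removes background, brings arrays to a common scale and combines probes into 1 value per transcript cluster. Its version is not given in the sources used here, and no detection call or genome build comes with the values. Arrays have no counting depth, and their number limits the precision. Names come from the array annotation, with 18550 clusters carrying 1 name, 595 several and 5270 none. All 24415 clusters were compared with limma 3.58.1 in R 4.3.3 (2 groups, moderated variance, two-sided), with Benjamini-Hochberg adjustment over all clusters, and the procedure was tested on simulated data. Called means an adjusted p under 0.05 and a fold over 2. The fold of a called or passing gene whose lower group averages under 4 is a lower bound as to background ("at least"), but not as to the spread between arrays. Only the log2 difference is given where such a gene averaged under 4 in both groups, or was higher at LOL by a measured fold under 2.

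The members, lists and the level of 4 were chosen with earlier results of these data known. For a gene with several clusters, the one with the highest mean was used. The text names all members, up to 4 passing genes of each list with the largest difference and up to 2 brightest ones that failed the test. For members past both thresholds, it also names the 3 clusters with the highest Pearson r, over the arrays and over deviations from group means. Genes outside this rule, such as those given because a count is 5 or fewer, were named after their values were seen. Alternatives were a plain analysis of variance, quantile normalization, median centring, an intensity trend, array weights, a filter on dim clusters, treat (a test against a fold of 2), a replicate block, averaging a gene's clusters and leaving out each array.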

Additional observations from a re-analysis of the deposited data

Results flagged for a closer look

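Of the members, none had an array far from the others of its group. Among the other genes named by rule, 1 array lay far from the other arrays of its group, by Dixon's test at 95%, in 3 genes. These were NOL 1 in *MAP2K1* (6.01), LOL 1 in *ATF3* (7.66) and NOL 1 in *PTGES* (7.51). Chance flags about 1 in 20 groups.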

How the results depend on the processing

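*ERRFI1* and *EREG* were past both thresholds in every setting run, at 2.88 to 2.98 and -1.83 to -1.65. *HBEGF*, *TGFA* and *ERBB2* passed the adjusted p in every setting except treat. Under treat, 2 members, 15 pathway genes and 490 clusters passed. With the adjusted p of the main fit alone, 6 members, 103 pathway genes and 10016 clusters passed. Of these, 2 members and 1189 clusters also had a fold over 2. With 1 array left out, 2 members were called each time, 5 to 6 passed the adjusted p, 90 to 97 pathway genes passed, and 1171 to 1234 clusters were called. With the replicate block 2 members were called, 6 members and 95 pathway genes passed the adjusted p, and *NRG1* was lost (adjusted p = 0.0805). Same-numbered samples deviated together at r = -0.027, 0.018, 0.114 and 0.025, and samples of different numbers at -0.106 to 0.076. These r over all clusters cannot decide whether equal numbers share a culture or a run. The block changed no call of a member. It lowered the standard error of *EREG* from 0.134 to 0.091 and raised that of *ERRFI1* from 0.072 to 0.082.

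Signs turned only in genes that did not pass. Under median centring they were -0.007 in *AREG*, -0.033 in *ADAM15*, -0.015 in *GRB14*, -0.023 in *EPS15* and -0.050 in *CEBPA*. Under quantile normalization they were 0.014 in *ELK4* and -0.082 in *CEBPA*. With 1 array left out, *CEBPA* ranged over -0.061 to 0.082, with 4 of the values below 0, and *PTGER2* over -0.006 (without NOL 3) to 0.204. The calls of *ERBB3*, *NRG1* and *NRG2* were lost without single arrays and with a plain analysis of variance, those of *ERBB3* and *NRG2* also with quantile normalization and that of *NRG2* with median centring, and the cause was not tested. The median of the ERK feedback regulators, 0.10, was 0.15 under quantile normalization and 0.03 under median centring. Signals under 4 limit *AREG*, *BTC*, *ERBB3* and *EREG* at LOL.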
